A study of Mus musculus with 14 samples.

Results

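The DNA methylation writers and erasers examined here are 10 genes, Dnmt1, Dnmt3a, Dnmt3b, Tet1, Tet2, Tet3, Tdg, Uhrf1, Uhrf2 and Gadd45a, taken by symbol from the 34193 gene symbols of a table of RNA sequencing counts. All 10 were found in the table. The RNA came from dissected cortex of C57BL/6J mice, 14 in all, aged 8 weeks. Of these, 7 carried a heterozygous knockout of Dnmt3a (heterozygous KO) and 7 were wild-type littermates, and each genotype had 4 females and 3 males. The labels used here do not say how the knockout allele was made or in which cells it acts. Sample titles begin with 1 of 6 numbers, called title prefixes here. Each prefix holds animals of both genotypes and of 1 sex, with prefixes 047, 139 and 141 in females and 046, 048 and 119 in males. What the prefix marks is not stated.

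DNA methylation in mammals is written on cytosine, mostly in CG dinucleotides and, in neurons, also at other cytosines. DNMT3A and DNMT3B place new methyl groups, while DNMT1, guided by UHRF1, copies methylation onto the new strand after DNA replication. TET enzymes oxidise the methyl group, and TDG, a thymine DNA glycosylase, cuts out the more oxidised forms so that base repair can restore plain cytosine. In the brain DNMT3A is known for the methylation that neurons acquire after birth.

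Promoter windows are shown first, since the CG dinucleotide is the main substrate of these enzymes. Windows of 300 bases, 250 before to 50 after the start, came from RefSeq on GRCm38.p6, and all 10 genes matched, with 15 windows. They are printed for Dnmt3a at 2 of its starts, since its counts sum transcripts from separate starts, for Dnmt3b as the least abundant relative, and for Gadd45a because it differed most between the sexes. Capitals mark CG dinucleotides, and all are written 5′ to 3′.
Dnmt3a, upstream start, chr12:3806910-3807209, plus strand: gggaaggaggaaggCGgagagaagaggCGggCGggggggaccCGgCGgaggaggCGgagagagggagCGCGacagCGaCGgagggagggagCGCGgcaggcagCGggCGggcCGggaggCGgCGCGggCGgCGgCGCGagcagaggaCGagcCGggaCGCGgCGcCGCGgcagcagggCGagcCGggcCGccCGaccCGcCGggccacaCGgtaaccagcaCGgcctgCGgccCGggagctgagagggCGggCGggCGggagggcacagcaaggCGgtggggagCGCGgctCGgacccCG
Dnmt3a, internal start, chr12:3891494-3891793, plus strand: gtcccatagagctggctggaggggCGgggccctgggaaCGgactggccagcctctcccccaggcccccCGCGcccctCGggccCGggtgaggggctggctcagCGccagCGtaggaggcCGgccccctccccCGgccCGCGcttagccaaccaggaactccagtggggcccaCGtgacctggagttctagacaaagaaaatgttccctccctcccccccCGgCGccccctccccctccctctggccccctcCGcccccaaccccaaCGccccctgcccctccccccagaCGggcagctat
Dnmt3b, chr2:153649199-153649498, plus strand: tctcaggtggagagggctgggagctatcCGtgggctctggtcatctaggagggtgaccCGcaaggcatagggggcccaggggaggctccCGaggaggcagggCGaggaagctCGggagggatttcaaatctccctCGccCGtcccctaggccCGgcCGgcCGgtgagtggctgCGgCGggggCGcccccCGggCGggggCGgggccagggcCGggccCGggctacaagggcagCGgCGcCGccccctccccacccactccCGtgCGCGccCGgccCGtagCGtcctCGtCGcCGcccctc
Gadd45a, chr6:67037358-67037657, minus strand: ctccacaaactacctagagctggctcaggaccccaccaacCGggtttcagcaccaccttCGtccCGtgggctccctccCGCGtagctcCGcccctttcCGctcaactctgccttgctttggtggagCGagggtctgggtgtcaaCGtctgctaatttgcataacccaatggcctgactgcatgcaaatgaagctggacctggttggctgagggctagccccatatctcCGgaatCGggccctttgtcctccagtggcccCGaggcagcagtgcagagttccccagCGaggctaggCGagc
The motif searched was CG, which reads the same on both strands. The upstream Dnmt3a window held 47 CG dinucleotides, and 1.44% of the 32851 windows of all genes held as many or more. The internal Dnmt3a window held 18, a number reached by 29.7% of windows, and the median window holds 7. The Dnmt3b window held 30 (11.7% of windows with as many or more) and the Gadd45a window held 14 (36.3%). Among the other genes the number was highest for Tet2, with 57 (0.152%). These counts describe the sequence and say nothing about its methylation in these animals, which was not measured here.

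Total counts per animal ran from 8951835 to 14335406, and levels are given as CPM, read counts scaled to library sizes that carry edgeR's TMM factors. After a filter on low counts 13815 genes were tested, among them 9 of the 10 writers and erasers, and Dnmt3b fell below the filter. No pair of libraries was a duplicate by its counts, with Pearson's r between animals at most 0.994. All 10 listed markers of cortical excitatory neurons were expressed and tested, with a summed level of 5512 to 7310 CPM per animal. The labels do not say whether tissue was pooled, so p-values measure the spread between these samples.

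Dnmt3a was lower in heterozygous KO cortex, and no other writer or eraser passed the test by genotype. Its level was 124 CPM in the lowest wild-type animal, 149 at the median and 164 in the highest, against 84.3, 96.8 and 118 CPM in heterozygous KO animals. The highest heterozygote stayed below the lowest wild-type animal, so the groups did not overlap. The share of all tested genes with such a separation by genotype was not counted. Some genes that were not called, such as Gm17251, separated fully as well. Among females the wild-type range was 146 to 159 CPM and the heterozygous range 90.1 to 118 CPM, and among males the ranges were 124 to 164 and 84.3 to 101 CPM. Dnmt3a therefore separated by genotype within each sex as well. In edgeR's quasi-likelihood test with Benjamini-Hochberg adjustment, the log2 fold change of -0.57 (SE 0.0752, 95% interval -0.72 to -0.41) had an adjusted p of 0.00774. This made 1 of 9 tested members, where 0.0145% of all tested genes were called. The antisense gene Dnmt3aos shares 133 exon bases with Dnmt3a in the GENCODE M21 annotation, and without strand their reads cannot be told apart. The same annotation holds a processed pseudogene, Dnmt3a-ps1, which could share reads of Dnmt3a. A count over the whole gene does not separate reads of the intact allele from those of the knockout allele. In RNA of whole tissue, fewer cells of a type and less RNA per cell cannot be told apart.

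Animals of the same title prefix allow a comparison of genotypes that shares sex and prefix. In prefix 046 the heterozygote had 96.8 CPM of Dnmt3a where the wild-type animal had 164, which is 59.0%. In prefix 139 the values were 90.1 and 149 CPM (60.6%), and in prefix 119 they were 84.3 and 131 CPM (64.2%). The smaller differences were in prefixes 047, with 118 against 159 CPM (74.5%), and 048, with 101 against 124 CPM (81.1%). Prefix 141 held 2 animals of each genotype and had means of 101 and 149 CPM (68.1%). Heterozygotes were thus lower in 6 of 6 prefixes, at a median of 66.2% of wild type, and a two-sided exact permutation of genotype within prefix gave p = 0.0104, its smallest possible value. With the prefix as a block in the fit, edgeR gave Dnmt3a an adjusted p of 4.23e-06 at a log2 fold change of -0.57 (SE 0.0545). In that fit 1 of 9 members was again called, where 0.405% of genes were. The change in the 8 animals of prefixes 046, 047, 048 and 139 analysed alone was -0.56, and edgeR's adjusted p of 0.111 missed the threshold.

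The genotype difference of Dnmt3a did not itself differ detectably between sexes, or between prefixes 119 and 141 and the other 4. Its variation among single prefixes was not tested. The genotype difference was -0.56 on the log2 scale in females (SE 0.103) and -0.57 in males (SE 0.119). These 2 values differed by -0.01 (SE 0.157, 95% interval -0.35 to 0.32). Between prefixes 119 and 141 and the other 4 prefixes the difference was -0.03 (SE 0.128, 95% interval -0.29 to 0.24). None of the 9 members was called for either difference by edgeR, where 0% of genes were called, and the counts of all genes at an unadjusted p under 0.05 were 144 and 2036. Over the other 8 members the difference between sexes ran from -0.12 for Tdg to 0.61 for Uhrf1 on the log2 scale. That between these groups of prefixes ran from -0.29 for Uhrf1 to 0.19 for Dnmt1. Markers of astrocytes lay lower in heterozygotes in 10 of 10 genes, none of them called, with summed levels per animal of 9721 to 17837 CPM (wild type) and 9323 to 14488 CPM (heterozygotes). Microglial markers were lower in 9 of 9 genes, markers of inhibitory neurons higher in 7 of 7, and cell cycle genes higher in 5 of 6 tested, again with none called. Summed levels in wild type and heterozygotes were 302 to 460 and 330 to 397 CPM for microglia, 550 to 808 and 643 to 840 CPM for inhibitory neurons, and 18.7 ± 1.58 and 22.7 ± 3.04 CPM (SD, n = 7 each) for the cell cycle list. The part of these lists in the Dnmt3a difference was not tested.

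**Figure D1:**
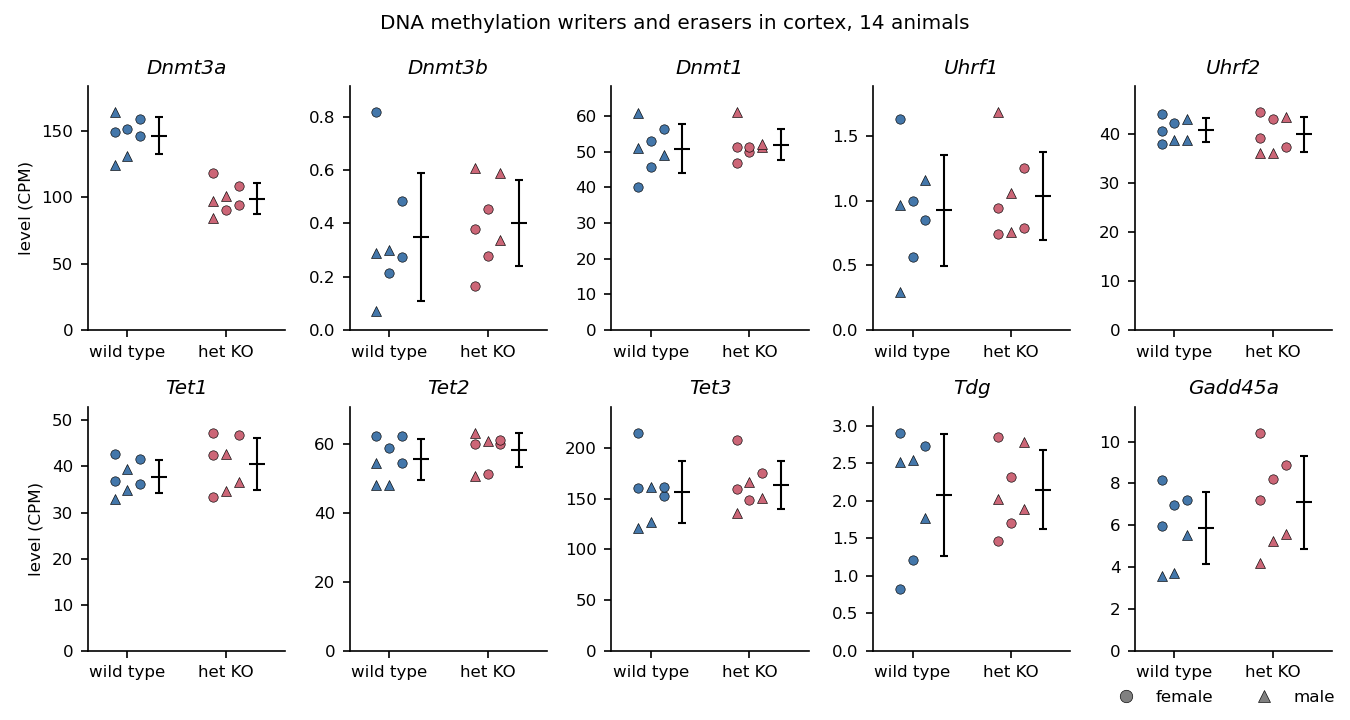
Level of each writer and eraser in CPM (y axis, from 0) for 7 wild-type and 7 heterozygous KO animals, with circles for females, triangles for males and black bars for mean and SD. Among these genes Dnmt3a alone shows groups that do not overlap, with 124 CPM in the lowest wild-type animal and 118 CPM in the highest heterozygote.

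Dnmt3b, the other de novo methyltransferase, was near the limit of detection in every animal. Its raw counts ran from 1 to 8 reads in wild type and from 2 to 8 reads in heterozygotes. Summed over animals there were 28 reads in wild type and 33 in heterozygotes, or 0.330 CPM of the raw totals (95% exact Poisson interval 0.219 to 0.477) and 0.399 CPM (0.275 to 0.561), intervals that cover counting error only. The groups overlapped almost fully. Without the filter the log2 fold change was 0.25 (SE 0.433, 95% interval -0.64 to 1.15, adjusted p = 0.958 by edgeR). Differences of Dnmt3b anywhere within this interval are compatible with these counts, and no smallest detectable difference was computed.

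The maintenance methyltransferase Dnmt1 had 40.1 CPM in the lowest wild-type animal, 50.9 at the median and 60.8 in the highest, and 46.7, 51.3 and 61.0 CPM in heterozygotes. The heterozygous range lay almost wholly inside the wild-type range. Its log2 fold change was 0.03 (SE 0.0783, 95% interval -0.13 to 0.19, adjusted p = 0.985 by edgeR). Uhrf1, which brings DNMT1 to hemimethylated DNA, was low, with 4 to 16 reads in wild type and 7 to 20 reads in heterozygotes. Its 95% interval of -0.42 to 0.86 around a log2 fold change of 0.22 was the widest of the 9. Uhrf2, a relative of Uhrf1 that binds hydroxymethylated DNA, had 37.9, 40.5 and 44.1 CPM at the lowest, median and highest wild-type animal, and 36.1, 39.1 and 44.4 CPM in heterozygotes. These ranges nearly coincided, and the log2 fold change was -0.03 (95% interval -0.17 to 0.11).

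The 3 TET dioxygenases had overlapping ranges in both genotypes. Wild-type animals had 32.8 to 42.6 CPM of Tet1 with a median of 36.7, and heterozygotes had 33.4 to 47.3 CPM with a median of 42.5. Tet2 ran from 48.0 to 62.3 CPM with a median of 54.6 in wild type, and from 50.7 to 63.2 CPM with a median of 60.1 in heterozygotes. For both genes the heterozygous median was the higher one, inside the spread of the wild-type animals. Tet3 ran from 121 to 215 CPM with a median of 160 in wild type, and from 136 to 208 CPM with a median of 159 in heterozygotes. The log2 fold changes were 0.10 for Tet1 (95% interval -0.07 to 0.28), 0.07 for Tet2 (-0.08 to 0.23) and 0.06 for Tet3 (-0.14 to 0.26), none called. A fall as deep as that of Dnmt3a lay outside all 3 intervals.

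Tdg had 8 to 36 reads per animal in wild type and 15 to 33 in heterozygotes, a log2 fold change of 0.05 and a 95% interval of -0.47 to 0.56. Tdg is uncertain in any case, since the GENCODE M21 annotation places 367 exon bases of Glt8d2 over it on the other strand and holds a processed pseudogene, Tdg-ps, which could share its reads. Glt8d2 itself had 108 to 256 reads per animal, more than Tdg.

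Gadd45a encodes a stress-induced protein that has been linked to active DNA demethylation. It had 3.58 CPM in the lowest wild-type animal, 5.98 at the median and 8.14 in the highest, and 4.21, 7.20 and 10.4 CPM in heterozygotes. The ranges overlapped widely, yet within each title prefix the heterozygous level was the higher one. The heterozygous level was 101% of wild type in prefix 046, 113% in 119, 120% in 139, 121% in 141, 128% in 047 and 146% in 048. The smallest of these is a near tie, at 5.57 against 5.52 CPM. The two-sided exact permutation test within prefix gave its smallest possible p, 0.0104, for Gadd45a and Dnmt3a only among the 10 members so tested. How many of all genes reach that value was not counted. Across all genes the log2 fold change of 0.26 (SE 0.125, 95% interval -0.00 to 0.52) missed the threshold (unadjusted p = 0.0504 and adjusted p = 0.978 in edgeR). With the prefix as a block it was 0.27, with a 95% interval of 0.06 to 0.48 that lay above 0. It missed the threshold there too (edgeR, unadjusted p = 0.0143 and adjusted p = 0.265). In that block fit 1782 genes had an unadjusted p under 0.05. Gadd45a ranked at 556 of 13815 genes by its p in the fit with sex.

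The authors' deposited table holds its own comparison of the genotypes, with log2 fold changes on a shrunken scale. In the authors' deposited table Dnmt3a had a log2 fold change of -0.45 and an adjusted p of 2.21e-11. It was the only member of the 9 with an adjusted p under the threshold there, where 0.191% of genes were called. Next in the authors' deposited table came Gadd45a, with 0.14 and an adjusted p of 0.591, and Tet1, with 0.09 and 0.717.

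**Figure D2:**
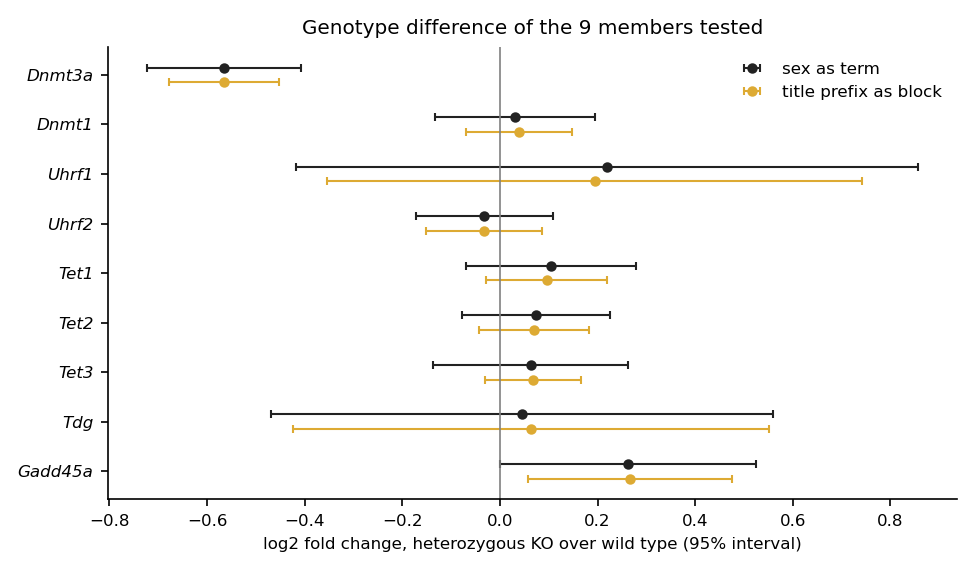
Log2 fold change of heterozygous KO over wild type (x axis) with 95% intervals for the 9 members tested, in black with sex as a term and in yellow with title prefix as a block. Dnmt3a lies at -0.57 in both fits, and every other interval with sex as a term reaches 0, with Gadd45a at 0.26. With the block the interval of Gadd45a, 0.06 to 0.48, lies above 0, though the gene was not called after adjustment.

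Ratios within an animal cancel the library total, and 8 of them were compared. Dnmt3a reads were 2.44 times Dnmt1 reads in the lowest wild-type animal, 2.81 times at the median and 3.65 times in the highest, against 1.58, 1.97 and 2.30 times in heterozygotes. The groups did not overlap. The mean ratio was 2.92 ± 0.420 in wild type and 1.92 ± 0.273 in heterozygotes (SD, n = 7 each), a log2 difference of -0.61 (two-sided exact permutation within sex over 1400 relabellings, p = 0.00143, its smallest possible value, 0.00571 adjusted over the 8 ratios). The balance of Dnmt3a to the sum of the TET genes, a writer against the oxidising enzymes, was tighter still. It ran from 0.512 to 0.654 with a median of 0.596 in wild type and from 0.354 to 0.392 with a median of 0.381 in heterozygotes. All 7 heterozygotes thus fell in a narrow band below every wild-type animal. The log2 difference was -0.64 (exact permutation p = 0.00143, adjusted 0.00571). In heterozygotes the coefficient of variation of this ratio was 3.27%, against 11.5% for Dnmt3a in CPM, and in wild type the values were 8.21% and 9.72%.

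With genotype permuted only within title prefix, both ratios again reached the smallest p that test allows (exact p = 0.0104, adjusted 0.0417). Dnmt3a against Dnmt3b had a log2 difference of -0.89 but rested on single-digit Dnmt3b counts and did not pass (exact permutation p = 0.0629, adjusted 0.168). The 5 ratios without Dnmt3a did not pass. Tet1 reads were 0.684 ± 0.0655 of Tet2 reads in wild type and 0.697 ± 0.0743 in heterozygotes (SD, n = 7 each), and Tet3 reads were 2.82 ± 0.399 and 2.81 ± 0.329 times Tet2 reads. Both pairs of means differed by less than 1 SD, with log2 differences of 0.03 and -0.00 (exact permutation, adjusted p = 0.870 and 0.980). Uhrf1 against Dnmt1, Uhrf2 against Uhrf1 and Dnmt3b against Dnmt1 each had an adjusted exact permutation p of 0.829.

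**Figure D3:**
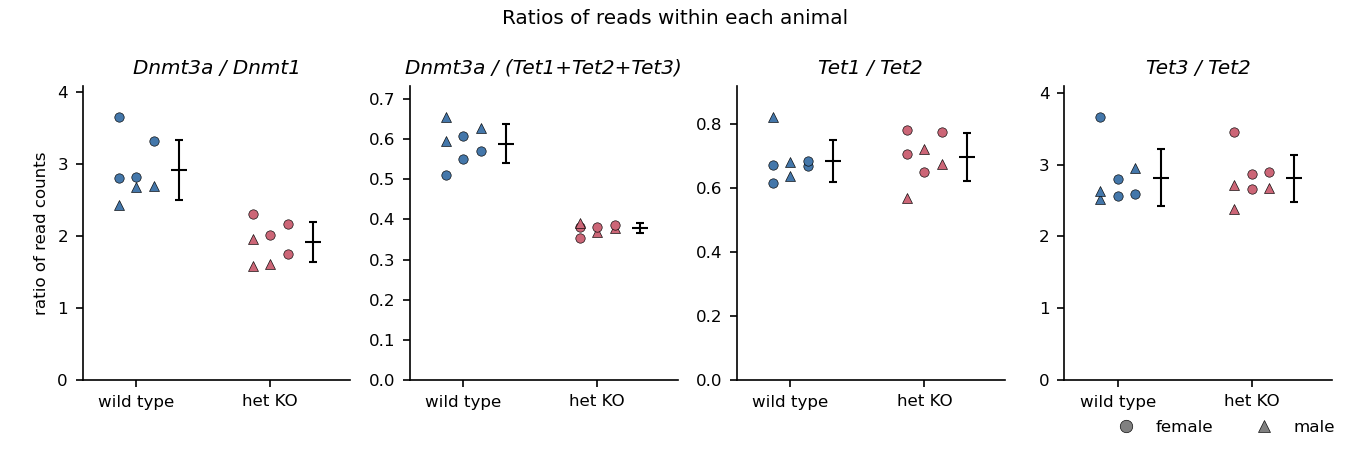
Ratios of read counts within each animal (y axis, from 0) for Dnmt3a to Dnmt1, Dnmt3a to the summed TET genes, Tet1 to Tet2 and Tet3 to Tet2, with circles for females, triangles for males and bars for mean and SD. Heterozygotes lie at 0.354 to 0.392 for Dnmt3a to the TET genes, below the wild-type range of 0.512 to 0.654, while the TET ratios overlap.

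Levels between genes were compared per kilobase of merged exons. Tet3 was highest at 9.60 CPM per kb over 14 animals, followed by Dnmt3a at 7.37, Dnmt1 at 6.96, Uhrf2 at 4.69, Gadd45a at 3.68, Tet2 at 3.37 and Tet1 at 2.53. Tdg at 0.392, Uhrf1 at 0.230 and Dnmt3b at 0.0736 CPM per kb formed a much lower tail. Neighbours in this order overlapped in range except at 2 places, between Dnmt1 and Uhrf2 and between Tet1 and Tdg. With merged exons as the length, the order of Dnmt3a and Dnmt1 turned on genotype. Dnmt3a had 8.79 ± 0.855 CPM per kb in wild type and 5.95 ± 0.683 in heterozygotes (SD, n = 7 each), and Dnmt1 had 6.88 ± 0.928 and 7.04 ± 0.594. Dnmt3a exceeded Dnmt1 in 7 of 7 wild-type animals and in 1 of 7 heterozygotes. Of the summed level of the 3 Dnmt genes per kb, Dnmt3a made 55.9% ± 3.30 in wild type and 45.5% ± 3.57 in heterozygotes (SD, n = 7 each). Tet3 made 61.8% ± 3.69 and 61.6% ± 2.79 of the summed level of the TET genes. Per kb, Dnmt3a exceeded Tet3 in 2 of 7 wild-type animals and in 0 of 7 heterozygotes, at 0.740 to 1.09 and 0.571 to 0.670 times the Tet3 level. With the longest transcript as the length, 6 of 10 genes kept their rank, while Uhrf2 and Dnmt1 changed places, as did Tet2 and Gadd45a. Dnmt3a then lay further above Dnmt1, at 12.7 against 8.75 CPM per kb over 14 animals. The order of Dnmt3a and Dnmt1 by genotype, and the shares of summed levels, depend on the length used and are given for merged exons only.

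**Figure D4:**
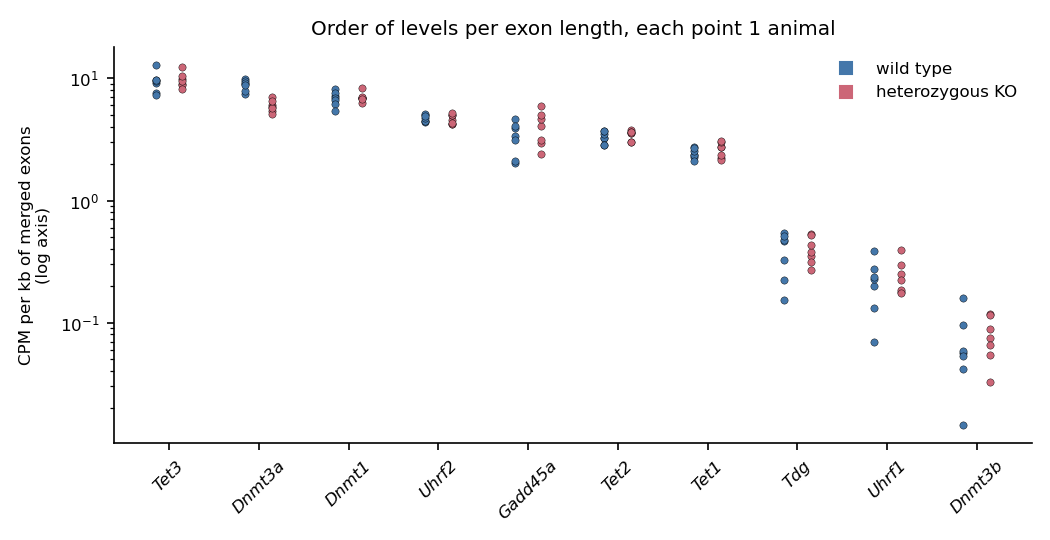
CPM per kb of merged exons (y axis, log scale) for each gene in order of its mean, with 1 point per animal and wild type left of heterozygous KO. Tet3, Dnmt3a and Dnmt1 lead, and Tdg, Uhrf1 and Dnmt3b lie below 0.6 CPM per kb in every animal.

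Variation beyond counting error differed among the genes. Over the 14 animals the coefficient of variation was 22.4% for Dnmt3a, where counting alone would give 2.61%, and 16.4% for Tet3, where it would give 2.29%. Gadd45a varied by 31.1% against 11.4% from counting. Uhrf2 was the steadiest gene at 7.41% against 4.56%. The value for Dnmt3a pools genotypes whose means differ. Within a genotype it was 9.72% in wild type and 11.5% in heterozygotes, below Tet3 at 19.4% and 14.3% and Gadd45a at 29.5% and 31.2%. For Dnmt3b, at 52.6% against 47.9%, nearly all the spread was of the size that counting gives.

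Title prefix separated several writers and erasers, at a share not far from that of all genes. Tested over the 6 prefixes together, with genotype as a term, 4 of 9 members were called, where 33.2% of all tested genes were. They were Tet3 (adjusted p = 2.62e-05), Gadd45a (9.17e-05), Dnmt1 (0.00973) and Tet1 (0.0276), all by edgeR's quasi-likelihood test. The other members were not called, with adjusted p from edgeR of 0.0508 for Dnmt3a, 0.0724 for Tet2, 0.217 for Uhrf1, 0.514 for Uhrf2 and 0.788 for Tdg. Since each prefix holds 1 sex, this test also takes in sex. Tet3 had 215 and 208 CPM in the wild-type and heterozygous female of prefix 047. Its lowest wild-type value was 121 CPM in prefix 119, where the heterozygote had 136 CPM. Both animals of prefix 047 therefore stood above all others for Tet3, whichever the genotype. Gadd45a was also highest in the prefix 047 animals on average, at 9.28 CPM, and lowest in prefix 119, at 3.97 CPM.

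An earlier pass over these data saw that prefixes 119 and 141 stood apart from the other 4, and this split was tested with genotype and sex as terms. The split was thus picked from the same animals that then tested it, and its p-values do not allow for that choice. Of 9 members 2 were called, where 38.8% of genes were, with 19.1% of genes called higher and 19.6% called lower in prefixes 119 and 141. Dnmt1 was lower in prefixes 119 and 141, at 47.2 ± 4.21 CPM (SD, n = 6) against 54.5 ± 4.34 CPM (SD, n = 8), a log2 difference of -0.19 (SE 0.0607, adjusted p = 0.0150 by edgeR). Its mean was 45.6 CPM in prefix 141 and 50.5 CPM in prefix 119, against 51.1 to 60.9 CPM in the other prefixes, so prefix 119 lay close to prefix 048. Over the same 6 animals Tet1 was higher, at 42.4 ± 4.15 against 36.7 ± 3.84 CPM, a log2 difference of 0.19 (SE 0.0662, adjusted p = 0.0275 by edgeR). Prefix 141 had the highest Tet1 mean at 44.6 CPM, whereas prefix 119, at 38.0 CPM, lay below prefix 047 at 39.3 CPM and beside prefix 048 at 37.7 CPM. The split sets 2 prefixes against 4, and animals of a prefix are not independent, so p-values that count animals are too small if the prefix is the unit. The Tet1 call was lost without heterozygous KO replicate 3, 6 or 7 or without wild type replicate 5, with adjusted p between 0.0555 and 0.0831 by edgeR. Tet3 (-0.18, adjusted p = 0.0955 by edgeR) and Uhrf1 (0.60, adjusted p = 0.0904 by edgeR) did not pass. Nor did Dnmt3a (-0.10), Gadd45a (-0.12), Tet2 (-0.00), Tdg (0.04) and Uhrf2 (0.04), with adjusted p from 0.259 to 0.984 by edgeR. Dnmt3b, outside these tests, had 25 reads in the 6 animals and 36 in the other 8.

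Astrocyte markers moved with the same split, with 10 of 10 called higher in prefixes 119 and 141 and summed levels of 12529 to 17837 CPM there against 9323 to 10753 CPM. Microglial markers were higher in 9 of 9 genes, 5 of them called, with summed levels of 358 to 460 against 302 to 402 CPM. Of 8 oligodendrocyte markers 4 were called higher, with 4281 to 6019 against 3417 to 4449 CPM. Of 10 markers of cortical excitatory neurons 6 were called lower and 1, Camk2a (log2 difference 0.41), higher. Their summed levels were 5653 to 7310 against 5512 to 5875 CPM. The mean sum was higher in prefixes 119 and 141 although 8 of 10 markers were lower, so the sum does not stand for the single markers. Of 7 markers of inhibitory neurons 3 were called lower and 1 higher, with 550 to 709 against 724 to 840 CPM. The part of these lists in the differences of Dnmt1 and Tet1 was not tested.

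Gadd45a was the member that differed most between the sexes. It had 5.98 to 10.4 CPM in females and 3.58 to 5.57 CPM in males, with means of 7.87 ± 1.36 (SD, n = 8) and 4.64 ± 0.906 CPM (SD, n = 6). Every female lay above every male, in both genotypes. The log2 difference of males from females was -0.75 (SE 0.129, 95% interval -1.02 to -0.48), the second smallest p of 13815 genes, and with an adjusted p of 0.0736 in edgeR it missed the threshold over all genes. In that fit 0 of 9 members were called, where 0.00724% of genes were, and 964 genes had an unadjusted p under 0.05. The filter was set by genotype groups of 7 animals, so genes read only in the 6 males did not enter this test. Both the rank of Gadd45a and the share of genes called are over the genes that remained. With the split of prefixes added as a term, Gadd45a fell by 0.77 on the log2 scale from females to males and passed (adjusted p = 0.0102 by edgeR), as 1 of 9 members, where 0.123% of genes were called. Over 3003 possible splits into 8 and 6 animals, a two-sided exact permutation test reached its smallest possible p, 0.000333. That value restates the complete separation of females and males for Gadd45a. How many of all genes show such a separation was not counted.

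Animals of the same prefix are not independent for this comparison. Over the prefix means Gadd45a had 9.28, 7.80 and 6.59 CPM in the female prefixes 047, 141 and 139, and 5.54, 4.41 and 3.97 CPM in the male prefixes 046, 048 and 119. All 3 female means lay above all 3 male means, and the exact permutation p over these 6 values was 0.1, the smallest possible with 3 against 3. Sex and prefix cannot be told apart beyond that. Tet3 also had a lower male level, with a log2 difference of -0.27 (SE 0.0968), which was not called (edgeR, adjusted p = 0.676). The other differences of males from females were 0.14 for Dnmt1, -0.12 for Dnmt3a, -0.15 for Tet1, -0.12 for Tet2, 0.17 for Tdg, 0.00 for Uhrf1 and -0.06 for Uhrf2, with adjusted p from 0.708 to 0.998 in edgeR. Dnmt3b had 34 reads in the 8 females and 27 in the 6 males. The related genes Gadd45b and Gadd45g were not called by sex, nor was Gadd45gip1, with log2 differences of 0.06, 0.10 and 0.02. E230016M11Rik, which shares 337 exon bases with Gadd45a on the other strand in GENCODE M21, had 19 to 44 reads in females and 22 to 36 in males, ranges that overlapped. Striatal markers moved with sex, higher in males in 7 of 7 genes with none called, at summed levels of 319 to 775 CPM in males and 236 to 566 CPM in females. Astrocyte markers were lower in males in 10 of 10 genes, also with none called, at summed levels of 9323 to 13386 CPM against 9721 to 17837 CPM. With the split of prefixes added as a term, 9 of 10 astrocyte markers were lower in males. Their median log2 difference was then -0.05, against -0.17 without the split. Striatal markers stayed higher in 7 of 7, with medians of 0.46 with the split and 0.52 without it. The part of either list in the Gadd45a difference was not tested.

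**Figure D5:**
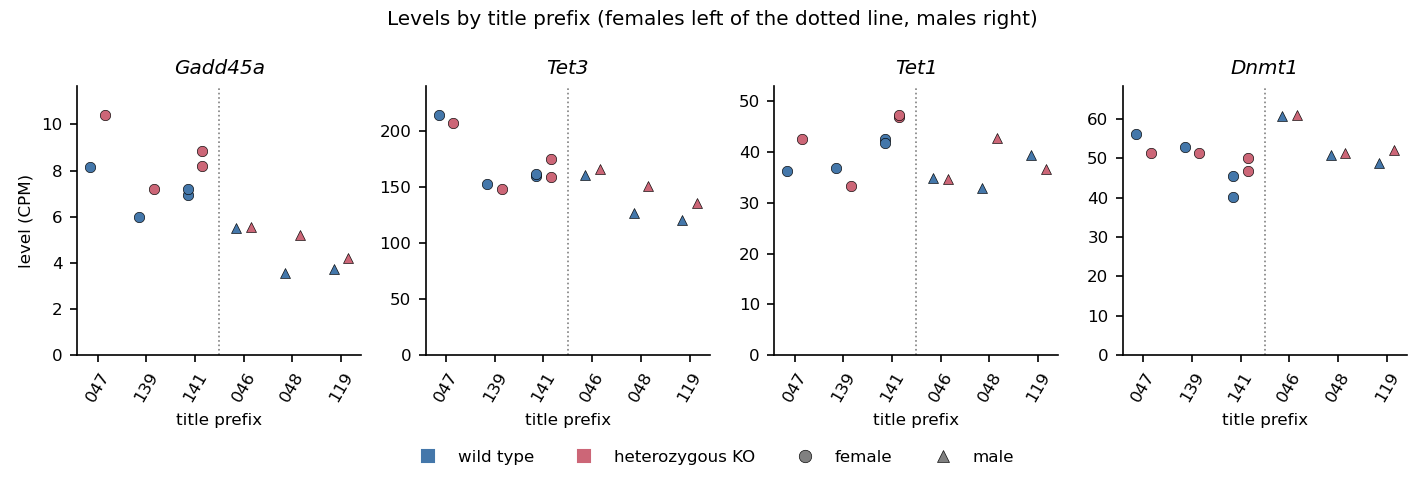
Levels in CPM (y axis, from 0) of Gadd45a, Tet3, Tet1 and Dnmt1 by title prefix (x axis), with females left and males right of the dotted line, blue for wild type and red for heterozygous KO. All females lie at or above 5.98 CPM for Gadd45a and all males at or below 5.57 CPM, and both prefix 047 animals lead for Tet3.

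The genes around the pathway did not pass the test by genotype. Partners were taken from 6 lists. These were methylation readers, partners of the writers, partners of the erasers, excision repair and deaminases, methyl donor supply and other genes named after Gadd45. Of these lists 60 genes were tested, and 0 were called by edgeR, with sex as a term or with the prefix as a block. At an unadjusted p under 0.05 there were 2 genes, Setd2, a histone methyltransferase gene (log2 fold change 0.12), and Mbd4, a glycosylase gene of mismatched bases at CG sites (0.22). Of the 60, 33 had a positive and 27 a negative log2 fold change, with a median of 0.01, against a median of 0.00 and 50.9% positive over all tested genes. The smallest p of the other lists belonged to Idh2, which encodes a mitochondrial isocitrate dehydrogenase (-0.21), Neil1, a base excision glycosylase gene (-0.29), Cbs, a homocysteine enzyme gene (-0.19), and Gadd45gip1 (-0.11), each with an adjusted p of 0.978 by edgeR. By the split of prefixes 22 of the 60 were called, 11 higher and 11 lower, which is 36.7% and close to the 38.8% of all genes.

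Genes whose level followed Dnmt3a over the 14 animals are given as a description, since the animals share the division into genotypes. The highest Pearson's r in log2 CPM were 0.842 for 2210406O10Rik, 0.831 for Phf21b and 0.831 for Gm17251. The lowest were -0.872 for 2410018M08Rik, -0.848 for Gm527 and -0.838 for Mab21l1. Of these 6 genes 5 had levels under 7 CPM in every animal, and none was called by genotype. Even so, the genotypes did not overlap for 2210406O10Rik, Gm17251 and Mab21l1, while they did for Phf21b, 2410018M08Rik and Gm527.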

How the data were processed

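Cortex RNA of 14 mice was sequenced as single-end reads from a directional library kit, per the labels' protocols. The authors deposited 1 table for the whole series with raw read counts per gene symbol in each animal. The submitters' processing notes list bedtools, Bowtie, STAR and Trim Galore, without versions, and mm9. The strand setting of the counting is not stated there, so reads of a gene and an overlapping one on the other strand cannot be told apart. In the same deposited table are the authors' own log2 fold change, test statistic (a score), p-value and adjusted p-value. The labels' molecule field names genomic DNA, whereas the protocol describes RNA.

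Group and sex came from the labels. Replicates were numbered in series order within genotype. The tool was edgeR 4.0.16 under R 4.3.3, with limma 3.58.1, and DESeq2 1.42.0 served as an alternative. All genes passing filterByExpr entered the robust quasi-likelihood F test (TMM scaling), with Benjamini-Hochberg adjustment and a threshold of 0.05. Genotype had sex as a term. Ratios had 0.5 added to each count and were tested by exact permutation. CPM used TMM-scaled library sizes, and log2 CPM had a prior count of 2. Steps were tested on simulated data with 200 changed genes. Exon lengths and overlaps came from GENCODE M21 on GRCm38, matched by symbol, and lengths are of another build than the counts. The table holds 14540 symbols with no read. At a few reads per animal, Dnmt3b, Uhrf1 and Tdg have wide intervals.

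Deviations from genotype means correlated at 0.200 to 0.517 across genes in the 9 pairs of animals with the same title prefix, which passes the rule for pairing, so results are also given with the prefix as a block. With sex and the split of prefixes removed, the correlations were -0.328 to -0.00545. The members and lists were chosen with earlier results of these data known. All 10 members are named in the comparisons by genotype, sex and the split of prefixes, and those tested in the one over 6 prefixes. Of each partner list the gene with the smallest genotype p is named, and any called gene. Of all genes, the 3 with the highest and the 3 with the lowest r with Dnmt3a are named. Alternatives were another normalization, no filter, DESeq2, the prefix block, the split of prefixes alone or as a term, and leaving out each animal.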

Additional observations from a re-analysis of the deposited data

Results flagged for a closer look

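In 36 sets of 7 animals of 1 genotype, a member's level or a ratio was checked for an animal far from the others by Dixon's test (critical value 0.568), and 6 sets had one; chance gives about 1 in 20. Heterozygous KO replicate 2 had a Dnmt1 level of 61.0 CPM, where the next heterozygote had 52.1, and it shares prefix 046 with the wild-type animal that was highest, at 60.8 CPM. Wild type replicate 3 had a Tet3 level of 215 CPM, where the next wild-type animal had 162. The same animal had the highest ratio of Tet3 to Tet2 in wild type, 3.66 against 2.95. The heterozygote of its prefix, 047, had 208 CPM of Tet3 and was also the highest of its genotype. Wild type replicate 5 had a ratio of Tet1 to Tet2 of 0.821, where the next was 0.684. The ratio of Dnmt3a to Dnmt3b stood apart at 523 in heterozygous KO replicate 7, with 2 reads of Dnmt3b, and at 1486 in wild type replicate 2, with 1 read.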

How the results depend on the processing

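Dnmt3a kept its call by genotype under 21 of 22 alternatives. The exception was prefixes 046, 047, 048 and 139 alone, where the log2 fold change was -0.56 (adjusted p = 0.111 by edgeR) and 0 members and 0 genes were called. Leaving out 1 animal gave -0.60 to -0.52. The count of genes called by genotype was 12 with DESeq2, 56 with the title prefix as replicate block, 15 with the split of prefixes added, 2304 in prefixes 119 and 141 alone and 1 to 4 without 1 animal. The replicate block left 1 member called by genotype and 2 ratios past the threshold. It left 0 members called for a difference of the genotype effect between sexes or across the split of prefixes. No call of a member or ratio changed with the block. By sex, 1 member was called without the filter and 1 with the split added (both Gadd45a, -0.75 and -0.77), 4 in prefixes 119 and 141 alone (Dnmt3a -0.22, Tet2 -0.32, Tet3 -0.36 and Gadd45a -0.97), where males are all of prefix 119 and females all of prefix 141 so that sex and prefix cannot be told apart, and 0 to 1 without 1 animal. Shares of all genes called by sex were not counted in these settings, except 0.123% with the split added, so the members cannot be set against them. Gadd45a passed without wild type replicate 1, wild type replicate 2 or heterozygous KO replicate 3 (adjusted p = 0.0194, 0.0250 and 0.0346 by edgeR), and its log2 difference ran from -0.85 to -0.70. By the split of prefixes 1 to 3 members were called without 1 animal, where 4654 to 5483 genes were. Tet3 passed without wild type replicate 1 (-0.22) or heterozygous KO replicate 3 (-0.24) or with no filter (-0.18), and Uhrf1 without heterozygous KO replicate 7 (0.72). The cause was not tested.

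Signs turned for small differences that were not called in the settings named here. In prefixes 046, 047, 048 and 139 alone these were Dnmt1 by genotype (-0.043) and, by sex, Tet2 (0.010), Tdg (-0.083) and Uhrf1 (-0.0021), the last 3 settings chosen after seeing the data. In prefixes 119 and 141 alone it was Uhrf2 by genotype (0.042). Without 1 animal, Dnmt1 by genotype ran from -0.013 to 0.071, Tdg by genotype from -0.074 to 0.17, Tet2 by the split from -0.048 to 0.042, Tdg by the split from -0.065 to 0.19 and Uhrf1 by sex from -0.20 to 0.21. The ratio differences ran from -0.028 to 0.54 for Dnmt3b to Dnmt1, from -0.0030 to 0.074 for Tet1 to Tet2, from -0.053 to 0.062 for Tet3 to Tet2 and from -0.067 to 0.39 for Uhrf1 to Dnmt1. Dnmt3a to Dnmt3b ran from -1.11 to -0.60 and passed only without wild type replicate 6, and 2 to 3 ratios passed. With the longest transcript as length, 6 members kept their rank.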
